A study of Homo sapiens with 12 samples.

Results

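The genes described here are those whose RNA level moved over 2-fold in the same direction with GCTM-5 staining in both of 2 human pancreatic adenocarcinoma cell lines, SW1990 and CFPAC-1. They were chosen from a comparison of antigen positive with antigen negative cells over all 12 samples, with the cell line as a block, so that each positive sample was set against negative samples of its own line. Of 23346 genes in the deposited table, 16236 had a mean of at least 0.1 RPKM (reads per kilobase of gene, scaled to the size of the library) and were tested. Over 2-fold in each line were 403 of them, 132 higher and 271 lower in positive cells, and 34 of these did not pass the blocked test. The remaining 369 are called shared genes below, 116 higher (0.714% of all genes tested) and 253 lower (1.56%). A change is a difference of mean log2(RPKM + 0.1), positive minus negative, which understates the change of genes near 0.1 RPKM.

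GCTM-5 is a mouse monoclonal antibody that binds a large glycoprotein complex on ductal and liver progenitor cells and on carcinomas, and the complex carries the CA 19-9 epitope, sialyl Lewis A. Sialyl Lewis A is built on glycoprotein chains by sialyltransferases and by a fucosyltransferase. Carcinoma lines often hold cells that range from an epithelial form, with keratins, tight junctions and desmosomes, to a mesenchymal form, with matrix and contractile proteins and the transcription factor ZEB1, and squamous differentiation adds stratified keratins and the cross-linked proteins of the cornified envelope.

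Both lines are established and untreated, and each was sorted into strongly stained and unstained cells, with 3 samples of each from triplicate sorts and intermediate cells left out. The 4 groups are thus SW1990 negative, SW1990 positive, CFPAC-1 negative and CFPAC-1 positive. Each line stems from 1 tumour, so the samples measure the spread between sorts and not between patients. Polyadenylated RNA was sequenced on the Illumina platform, but paper and labels disagree on the kit (TruSeq or a strand-specific SureSelect kit), the medium and the second antibody. In sorted populations, fewer cells of a type and less RNA per cell cannot be told apart. P-values and SEs of the blocked change rest on the spread between sorts, which may be technical, and on how far the change differs between the lines.

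Libraries held 9969697 to 26159330 reads, the lowest being CFPAC-1 positive replicate 3, and samples of a group correlated at 0.968 to 0.986 over genes. After centring each line, positive samples lay on one side and negative samples on the other of the leading principal component, which took up 38.0% of the variance. The next, with 23.2%, also set positive and negative samples apart, but in opposite directions in the 2 lines. The one after that set CFPAC-1 positive replicate 3 apart. Leaving out that library gave 132 higher and 266 lower shared genes. Of 18 ductal carcinoma markers 14 to 17 had a mean above 1 RPKM in each group, and their summed level was 2103 to 2395 RPKM in SW1990 negative, 5891 to 6238 in SW1990 positive, 8069 to 9137 in CFPAC-1 negative and 8306 to 10555 in CFPAC-1 positive cells. Of 12 fibroblast and stellate markers, *LUM* (up to 17.6 RPKM) and *COL1A1* (up to 3.85) were the highest, and *THY1* was at 0 in every sample. The summed level was 15.3 to 26.2 RPKM in SW1990 negative cells and 3.42 to 6.52 in the other groups. Of the 5 that were tested, 4 were lower in SW1990 positive cells and 0 in CFPAC-1 positive cells (limma adjusted p under 0.05 within a line). The 8 endothelial markers, mainly *CDH5*, summed to 15.2 to 19 RPKM in SW1990 negative cells and to 0.797 to 2.29 in the others, without a shared gene among them. The 12 blood cell markers, mainly *CD68* and *LYZ*, summed to 36.2 to 50.2 RPKM in SW1990 negative, 16.5 to 35 in SW1990 positive, 179.9 to 210.2 in CFPAC-1 negative and 163.1 to 228.4 in CFPAC-1 positive cells, while *PTPRC*, which all white blood cells carry, was at most at 0.0488 RPKM. Of these 12, *CD14*, a co-receptor for bacterial lipopolysaccharide, was a shared lower gene, with a blocked change of -1.75 (SE 0.20). The 12 acinar and 10 islet markers summed to at most 7.55 and 3.11 RPKM. The part of these cells in the genes below was not tested.

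More of the shared genes were lower than higher, and the percentages of all genes tested given above are the background for every list below. Taken by line, 888 genes were over 2-fold higher and 1416 lower in SW1990, and 1101 higher and 895 lower in CFPAC-1. The median change of the higher genes was 1.90 in SW1990 and 1.57 in CFPAC-1, that of the lower genes was -1.69 and -1.43, and that of all genes tested was -0.04 and 0.05. Over 4-fold in each line were 16 higher and 32 lower genes. The positive and negative samples of neither line overlapped for 105 of the 116 higher and 221 of the 253 lower genes, while 7.69% of all genes tested lay above and 8.06% below in every sample of each line. Since these values chose the genes, they are given as a description. The 12 genes named below for the largest change in each direction were taken only from those without overlap. Their lack of overlap is thus part of the choice and not a finding.

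**Figure D1:**
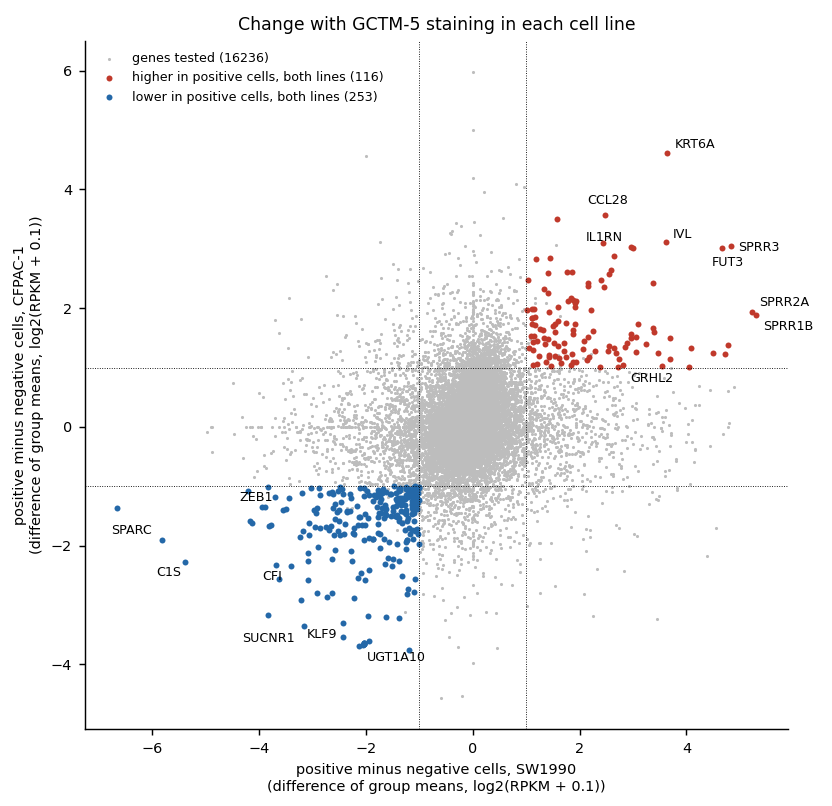
Change with GCTM-5 staining in SW1990 (x axis) against CFPAC-1 (y axis), both as the difference of group means of log2(RPKM + 0.1), for 16236 genes tested (grey); dotted lines mark 2-fold. The 116 shared higher genes (red) and 253 shared lower genes (blue) fill 2 opposite corners, and many genes over 2-fold in 1 line lie near 0 in the other.

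Many of the shared genes were at low levels, which limits the size that can be given to their change. The median level was 3.29 RPKM for the higher and 1.97 for the lower genes, against 7.13 for all genes tested. A group of 3 samples held at most 3 reads in each for 26 higher and 47 lower genes. Against 3 reads, 9 of the higher and 27 of the lower genes changed by a bound under 2-fold, or were at that limit in both groups of a line, leaving 107 and 226. With a pseudocount of 1 RPKM in place of 0.1 the counts were 41 and 74, and all of these were among the shared genes.

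The genes just inside and just outside 2-fold show where the line was drawn. The closest higher genes inside were *MYO1D* (a change of 1.005 in its smaller line), *TFF1* (1.006) and *LOC100288748* (1.006), and outside *TTYH1* (0.999), *EPHA1* (0.996) and *FAM83F* (0.985). The closest lower genes inside were *UBE2Q2P1* (-1.002), *CTSB* (-1.003) and *TNIP3* (-1.004, with at most 3 reads in each positive sample), and outside *NFE2* (-0.998), *CAPN3* (-0.998) and *ITGA1* (-0.996).

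Squamous and barrier genes are described first. Of 36 genes tested from a list of cornified envelope and squamous differentiation genes, 6 (16.7%) were higher in both lines and none was lower, and of 15 stratified and hair keratins 4 (26.7%) were higher and none was lower. In the blocked test without a fold threshold, for which 15.3% of all genes tested were higher and 14.4% lower, 20 of the 36 and 8 of the 15 were higher. The median change of the cornified list was 1.51 in SW1990 and 0.28 in CFPAC-1, and the change differed between the lines for 23 of the 36, being more positive in SW1990 for 20 and in CFPAC-1 for 3 (adjusted p under 0.05).

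*IVL*, which encodes involucrin, a protein cross-linked into the cornified envelope, lies on chromosome 1 at chr1:152881022-152884362 (GRCh37), beside small proline-rich genes of the same envelope. In SW1990 its level was 0.729, 0.241 and 0.318 RPKM in negative and 8.26, 4.97 and 5.02 in positive cells. CFPAC-1 had 0.192, 0 and 0.094 in negative and 2.06, 1.55 and 0.94 in positive cells. The positive and negative samples overlapped in neither line, and the blocked change was 3.36 (SE 0.32, limma adjusted p = 4.91e-05). Where 3 values are set against 3 others below, negative cells come first. *SPRR3*, a small proline-rich envelope protein gene, stood at 0.296, 0.61 and 0.688 RPKM in SW1990 negative and 16.1, 23.9 and 13.3 in SW1990 positive cells. In CFPAC-1 *SPRR3* was 0.677, 2.32 and 2.24 in negative and 12.8, 10.3 and 18.4 in positive cells, again without overlap, and its blocked change was 3.94 (SE 0.39, adjusted p = 6.74e-05). *SPRR1B*, of the same family, rose from 2.36, 2.08 and 3.74 RPKM to 103, 174 and 71.4 in SW1990 and from 0.83, 2.36 and 1.62 to 5.74, 4.47 and 7.29 in CFPAC-1. Its change was 3.42 larger on the log2 scale in SW1990 (adjusted p = 0.000747 for the difference). *SPRR2A* was at 0 reads in all CFPAC-1 negative samples and at 0.452, 0.157 and 0.296 RPKM in the positive ones, at least 1.39-fold higher against 3 reads, while in SW1990 it went from 4.46, 2.92 and 3.51 to 116, 179.8 and 123. Small proline-rich genes are near copies, and how reads that match several were counted is not given in the sources used here.

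*KRT6A*, a keratin of stressed and stratified epithelium, had the largest blocked change of all shared higher genes, 4.12 (SE 0.20, adjusted p = 1.29e-06). Its level was 4.53, 4.17 and 5.52 RPKM in SW1990 negative and 64.2, 70.9 and 47.3 in SW1990 positive cells. The CFPAC-1 levels were 0.0839, 0.168 and 0.143 in negative and 6.29, 4.35 and 5.98 in positive cells, so every positive sample lay above every negative sample of its line. The gene lies at chr12:52880960-52887041, next to *KRT6B*. *KRT6B*, its near copy, was 0.299, 0.245 and 0.0991 against 3.37, 4.36 and 2.72 RPKM in SW1990, and in CFPAC-1 it was at least 2.08-fold higher against 3 reads. *KRT81*, a hair keratin gene, was abundant, with 58.1, 53.1 and 61.9 RPKM in SW1990 negative and 193, 337 and 266 in SW1990 positive cells. In CFPAC-1 *KRT81* was 102, 34.6 and 32.6 in negative and 322, 303 and 185 in positive cells, and the negative sample at 102 RPKM stood apart from its group. *KRT86* overlaps *KRT81* in the GRCh37 annotation on the opposite strand, so their reads may be shared. *S100A9* and *SPRR1A* are named to complete the 6 shared genes of the cornified list. *S100A9*, a calcium-binding protein of inflamed and squamous epithelium, went from 3.37, 6.55 and 8.13 RPKM to 45.7, 106 and 84.5 in SW1990. In CFPAC-1 *S100A9* went from 0.534, 0.634 and 0.695 to 1.19, 1.29 and 2.09. *SPRR1A* was 0, 0.131 and 0 against 0.944, 2.97 and 0.517 RPKM in SW1990, at least 6.53-fold higher against 3 reads. In CFPAC-1 *SPRR1A* was 0.157, 0 and 0 against 0.7, 0.488 and 0, so the samples overlapped. Its bound there was 1.76-fold.

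The promoters of 4 of the largest risers are printed to show some of the short sequences counted further below, and these 4 were chosen after their values were seen. They run from 250 bases before to 50 bases after the start of the gene, 5′ to 3′ on the gene's strand, and come from RefSeq on GRCh38.p14, while all other positions here are GRCh37. Capitals mark CAGGTG (an E-box of the kind that ZEB and SNAIL factors bind), TGANTCA (the AP-1 site) and TATAAA (the TATA box), on either strand. Matches to the other sequences counted below are not marked.
*IVL*, chr1:152908296-152908595 (plus strand): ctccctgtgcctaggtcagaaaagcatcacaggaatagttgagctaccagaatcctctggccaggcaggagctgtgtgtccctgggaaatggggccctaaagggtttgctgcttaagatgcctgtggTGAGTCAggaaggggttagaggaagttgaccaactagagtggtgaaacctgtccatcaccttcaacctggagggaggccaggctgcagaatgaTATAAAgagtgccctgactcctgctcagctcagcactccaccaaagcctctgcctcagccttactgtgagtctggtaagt
*SPRR3*, chr1:153001499-153001798 (plus strand): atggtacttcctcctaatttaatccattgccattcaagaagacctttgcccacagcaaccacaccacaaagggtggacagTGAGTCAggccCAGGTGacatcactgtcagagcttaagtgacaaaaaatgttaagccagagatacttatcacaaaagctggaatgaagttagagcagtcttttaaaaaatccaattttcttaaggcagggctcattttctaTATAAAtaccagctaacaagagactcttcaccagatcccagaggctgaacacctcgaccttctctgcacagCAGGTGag
*SPRR1B*, chr1:153030953-153031252 (plus strand): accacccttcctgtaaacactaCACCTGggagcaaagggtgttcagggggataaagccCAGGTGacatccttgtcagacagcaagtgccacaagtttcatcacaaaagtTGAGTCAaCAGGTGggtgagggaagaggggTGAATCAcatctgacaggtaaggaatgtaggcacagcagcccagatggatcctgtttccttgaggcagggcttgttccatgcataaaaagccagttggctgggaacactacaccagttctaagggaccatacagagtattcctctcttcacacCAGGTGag
*FUT3*, chr19:5851400-5851699 (minus strand): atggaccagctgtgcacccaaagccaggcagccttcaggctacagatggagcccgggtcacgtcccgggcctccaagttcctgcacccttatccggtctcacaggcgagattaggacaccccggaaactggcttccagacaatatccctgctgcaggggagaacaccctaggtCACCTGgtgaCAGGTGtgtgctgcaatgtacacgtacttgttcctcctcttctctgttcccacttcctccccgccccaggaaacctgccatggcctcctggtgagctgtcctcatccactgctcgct
Of the marked sequences, *IVL* had 1 AP-1 match and 1 TATA box, and *SPRR3* had 2 E-boxes, 1 AP-1 match and 1 TATA box. *SPRR1B* had 4 E-boxes and 2 AP-1 matches, and *FUT3* had 2 E-boxes.

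Junction genes had fewer shared members. Of 21 desmosome and hemidesmosome genes, 2 were higher in both lines and 10 in the blocked test. *PKP2*, a plakophilin that ties cadherins to keratin in desmosomes, went from 20.2, 16.7 and 14.3 RPKM to 44.5, 30.6 and 36.8 in SW1990 and from 7, 7.4 and 6.35 to 22.9, 17.3 and 16.5 in CFPAC-1. *EPPK1*, epiplakin, a keratin-binding protein, had a blocked change of 1.54 (SE 0.16). Of 13 gap junction and junctophilin genes 2 were higher, *GJB2*, which encodes connexin 26, with a change of 2.0 (SE 0.30), and *JPH1*, a junctophilin of the endoplasmic reticulum, with 2.0 (SE 0.13). The 16 adherens junction genes and 6 simple epithelial keratins held no shared gene. The only shared gene of 38 tight junction and polarity genes was lower, *CLDN10*, a claudin of ion-permeable junctions, with a change of -1.53 (SE 0.29). The median change of the tight junction list was 0.82 in SW1990 and -0.21 in CFPAC-1.

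Among 36 epithelial transcription and splicing factors 3 were higher in both lines, all of the grainyhead and CP2 family that drives epithelial gene expression, and with a pseudocount of 1 the count was 0. *GRHL2* was 4.86, 3.62 and 5.62 RPKM in SW1990 negative and 34.1, 31.4 and 33.5 in SW1990 positive cells. In CFPAC-1 it was 12.5, 14.3 and 14.4 against 33.6, 28.6 and 23.4. The positive samples of the lines overlapped, and the change was 1.77 larger on the log2 scale in SW1990 (adjusted p = 0.000183), whose negative cells were the lowest. *GRHL1* changed by 1.67 (SE 0.23) and *TFCP2L1*, a CP2 factor of ducts and tubules, by 2.09 (SE 0.25).

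Secreted factors, receptors and surface proteins come next. *F3*, tissue factor, the cell surface starter of coagulation, had the highest level of all shared higher genes. It was 210.3, 169 and 169 RPKM in SW1990 negative and 625, 758 and 691 in SW1990 positive cells, and 162, 129 and 128 against 624, 465 and 336 in CFPAC-1, with no overlap and a blocked change of 1.82 (SE 0.14, adjusted p = 1.75e-05). *EREG*, epiregulin, a ligand of the EGF receptor, was the only shared gene of 26 in the EGF receptor family list. It went from 22.1, 22.1 and 24.4 RPKM to 59.4, 66.9 and 58.8 in SW1990 and from 89.3, 86 and 82.3 to 231, 207 and 164 in CFPAC-1, a change of 1.32 (SE 0.09).

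Antagonists of the interleukin-1 family were higher, a grouping made after their values were seen. *IL1RN* encodes the interleukin-1 receptor antagonist, *IL1R2* a decoy receptor of interleukin-1 and *IL36RN* the interleukin-36 receptor antagonist, and these were 3 of the 4 shared higher genes among 68 chemokines, cytokines and receptors. *IL1RN* was 13.1, 16 and 23.7 RPKM in SW1990 negative and 100.1, 197 and 129 in SW1990 positive cells. CFPAC-1 had 0.0972, 0.26 and 0.142 against 4.29, 2.04 and 0.854, a far lower level. The change was 3.01 there and 2.99 in SW1990. The CFPAC-1 negative levels were near the pseudocount of 0.1 RPKM, which understates the CFPAC-1 change, so the sizes cannot be called equal. *IL1R2* was at most at 0.359 RPKM in negative cells, and in SW1990 positive cells it was at least 9.48-fold higher against 3 reads. *IL36RN* was at 0 in all CFPAC-1 negative samples and at least 2.87-fold higher in the positive ones, and in SW1990 its change was 2.29. The fourth, *CCL28*, a chemokine of mucosal epithelium, went from 1.43, 2.05 and 2.22 RPKM to 6.89, 13.9 and 13.4 in SW1990 and from 2.33, 1.06 and 1.6 to 23.3, 16.9 and 20.4 in CFPAC-1. Of the same 68 genes 3 were lower in both lines, *CSF1*, the macrophage colony factor, with -1.47 (SE 0.20), *LTB*, lymphotoxin beta, with -1.38 in SW1990 and at least 1.11-fold in CFPAC-1, and *LIFR*, the receptor of leukaemia inhibitory factor, with -1.29 (SE 0.10).

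*FUT3*, the fucosyltransferase that makes Lewis antigens, was the only shared gene of 53 fucosyltransferase and Lewis glycan genes, with a blocked change of 3.84 (SE 0.35). Its level was 1.13, 0.514 and 1.75 RPKM in SW1990 negative and 19.8, 35.5 and 32.4 in SW1990 positive cells, and 0.436, 0.547 and 0.387 against 4.93, 5.27 and 3.18 in CFPAC-1, so that the groups overlapped in neither line. Among 44 carcinoma surface antigens, *LY6D*, a membrane protein of squamous cells, and *UPK2*, an uroplakin of the bladder lining, were higher. *UPK2* went from 1.98, 0.966 and 2.66 RPKM to 46.8, 49.8 and 54.1 in SW1990 and from 1.81, 2.74 and 2.2 to 8.06, 7.07 and 3.65 in CFPAC-1. *TFF1*, a secreted trefoil peptide, was at 0 in all SW1990 negative samples and at 1.05, 1.8 and 1.95 RPKM in positive ones, at least 5.31-fold higher against 3 reads, and 1.15, 1.49 and 1.33 against 2.49, 2.38 and 3.47 in CFPAC-1. *CST6*, a cysteine protease inhibitor, changed by 2.55 in SW1990 and 2.57 in CFPAC-1. *FST*, follistatin, which binds activins, changed by 2.77 (SE 0.26), and *INHBB*, an activin subunit, by 1.49 (SE 0.21).

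Of the 116 shared higher genes, 42 were in the 45 functional lists and 74 in none. The largest changes outside the lists were those of *ARHGAP40*, a GTPase activating protein gene, *C2orf54* and *ZBED2*, a zinc finger transcription factor gene. *ZBED2* was 8.11, 3.47 and 6.21 RPKM in SW1990 negative and 62.3, 53.6 and 62.5 in SW1990 positive cells, and 2.52, 3.34 and 2.64 against 18.4, 11.1 and 18.3 in CFPAC-1, without overlap in either line. *ARHGAP40* changed by 2.97 in SW1990 and 3.04 in CFPAC-1, where its negative mean of 0.0755 RPKM was under the pseudocount, which understates that change. *C6orf15*, outside the lists as well, was among the 5 most abundant, at 133, 100.5 and 117 RPKM in SW1990 positive and 52, 51.8 and 32.9 in CFPAC-1 positive cells.

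**Figure D2:**
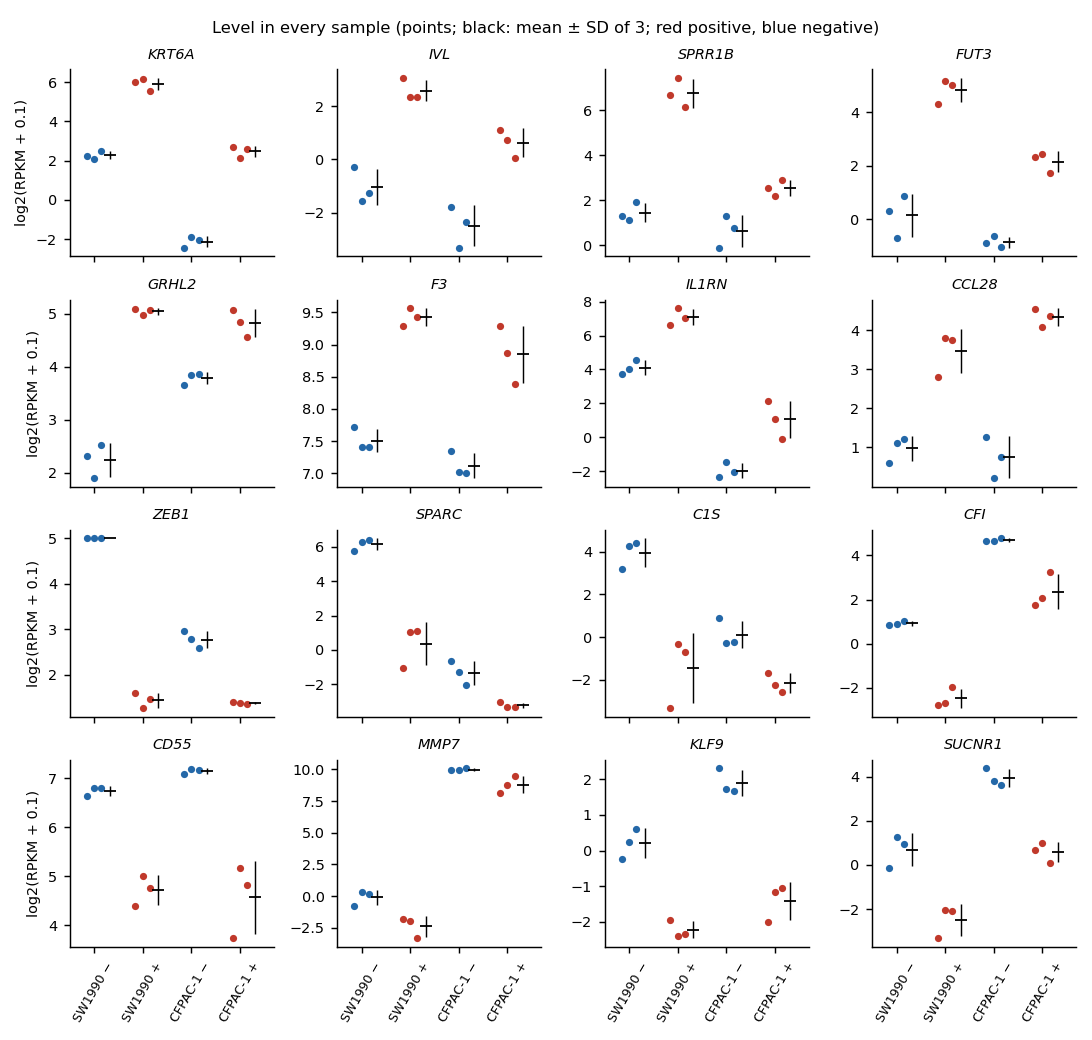
Level of 16 shared genes in every sample as log2(RPKM + 0.1), with the mean and SD of 3 samples beside each group; red points are positive and blue points negative samples. In the upper 8 panels the positive samples of each line lie above its negative samples, and in the lower 8 below; the levels of the lines can differ far more than the sorted groups, as for *MMP7*, whose negative cells averaged 0.893 RPKM in SW1990 and 1010 in CFPAC-1.

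Complement and coagulation genes had the highest share of genes lower over 2-fold in both lines among the 45 lists, while in the blocked test alone the matrix metalloproteinase list (52.3% lower) and the EMT transcription factors (46.2%) stood above their 45.2%. Of 31 complement and coagulation genes tested, 10 (32.3%) were lower in both lines against 1.56% of all genes tested, and *F3* was the only one higher. The median change of the list was -1.24 in SW1990 and -0.72 in CFPAC-1. With genes at the depth limit set to their bound the blocked median was -0.70 in place of -0.82. Under the alternatives tried the count lay between 6, with a pseudocount of 1, and 10.

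The 2 proteases that open the classical pathway, *C1R* and *C1S*, are neighbours on chromosome 12 (*C1S* at chr12:7096351-7178336, *C1R* at chr12:7187513-7245203) and were both lower. *C1R* was 27.9, 57.4 and 58.6 RPKM in SW1990 negative and 1.36, 4.21 and 2.69 in SW1990 positive cells. The CFPAC-1 levels were 6.71, 5.29 and 4.78 against 1.42, 1.86 and 1.99, without overlap. The change in SW1990 minus that in CFPAC-1 was -2.51 (adjusted p = 0.00383). *C1S* was 8.92, 19.1 and 21.4 against 0, 0.713 and 0.522 RPKM in SW1990, and 1.74, 0.716 and 0.768 against 0.218, 0.114 and 0.0714 in CFPAC-1, a blocked change of -3.83 (SE 0.65). *CFI*, the factor I protease that inactivates complement, was 1.69, 1.75 and 1.96 RPKM in SW1990 negative and 0.0477, 0.0545 and 0.157 in SW1990 positive cells, and 25.2, 24.8 and 27.4 against 3.27, 4.07 and 9.52 in CFPAC-1.

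Regulators and other members follow. *CD55*, the decay-accelerating factor that protects the cell surface, was 99.1, 111 and 111 RPKM in SW1990 negative and 20.9, 31.8 and 27.2 in SW1990 positive cells. In CFPAC-1 *CD55* was 136, 146 and 143 against 13.2, 35.7 and 28, a blocked change of -2.3 (SE 0.21, adjusted p = 3.98e-05), and it counts under the surface antigens. The members *CFB*, *PROS1*, *HP* and *C1QL1* are named after their values were seen. *SERPING1*, the C1 inhibitor, changed by -2.21 (SE 0.29) and *CFB*, factor B of the alternative pathway, by -1.34 (SE 0.29). The negative and positive samples of *CFB* overlapped in SW1990, where they were 24, 44 and 49.6 against 7.26, 26.9 and 20 RPKM. *F2R*, the thrombin receptor, was the most abundant of the list to fall, from 39.8, 43.8 and 51 RPKM to 10.6, 14.7 and 11.5 in SW1990 and from 333, 448 and 446 to 106, 109 and 114 in CFPAC-1. *PROS1*, protein S, which limits coagulation, changed by -1.85 (SE 0.23). *HP*, haptoglobin, was at most at 0.646 RPKM, and its bound was under 2-fold in both lines. *C1QL1*, which changed by -2.14 (SE 0.37), encodes a secreted C1q-like protein known from synapses.

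Matrix, protease and contractile genes follow. Lower in both lines were 6 of 44 matrix metalloproteinases, ADAMTS proteases and related genes, 5 of 70 matrix glycoproteins and proteoglycans, 4 of 32 contractile and mesenchymal cytoskeleton genes, 2 of 27 mesenchymal adhesion genes and 1 of 38 collagens. In the blocked test 23, 29, 12, 12 and 11 of these were lower, against 14.4% of all genes tested. Fewer were higher, 1, 4, 2, 0 and 0. In the same order, the list medians were -0.72, -0.87, -0.92, -0.82 and -0.83 in SW1990. They were nearer to 0 in CFPAC-1, at -0.38, -0.15, -0.15, -0.30 and -0.07. Within CFPAC-1, 16, 16, 8, 11 and 6 were lower and 5, 14, 8, 4 and 1 higher (limma adjusted p under 0.05). Over the alternatives the counts lower in both lines ranged from 1 to 13, 1 to 7, 2 to 5, 1 to 6 and 1 to 2, and each lowest value came with a pseudocount of 1.

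*MMP7*, matrilysin, a protease of ductal epithelium, had the highest level of the shared lower genes. In CFPAC-1 it was 961, 988 and 1081 RPKM in negative and 279, 428 and 715 in positive cells. In SW1990 it was 0.478, 1.19 and 1.01 against 0.184, 0.158 and 0, so the lines differed in level by far more than the sorted groups. *CTSB*, cathepsin B, was 169.8, 194 and 194 RPKM in SW1990 negative and 53.8, 81.5 and 68.3 in SW1990 positive cells, and 102, 99.2 and 96.5 against 40.4, 59.1 and 50.7 in CFPAC-1. *MMP11*, a protease found in tumour stroma, changed by -1.81 (SE 0.20), and *MRC2*, which takes up collagen fragments, by -2.65 (SE 0.43).

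*SPARC*, a collagen-binding matrix protein, was 55, 79.1 and 85.1 RPKM in SW1990 negative and 0.373, 1.97 and 2.04 in SW1990 positive cells. Levels in CFPAC-1 were close to the limit, 0.544, 0.306 and 0.14 in negative and 0.0213, 0 and 0 in positive cells, and at least 6.17-fold lower against 3 reads. *COL6A2*, a collagen VI chain, was 82.8, 102 and 117 against 14.3, 17.5 and 14.5 RPKM in SW1990 and 22.7, 8.88 and 9.06 against 2.32, 2.82 and 7.18 in CFPAC-1. *SPP1*, osteopontin, changed by -3.88 in SW1990 and -1.35 in CFPAC-1, and *FBN1*, fibrillin 1, by -3.82 and -1.01. Against the list, *NID2*, a basement membrane nidogen, was higher, with a blocked change of 2.14 (SE 0.26), and so was *NTN1*, netrin 1, with 1.73 (SE 0.19). *ITGB3*, the integrin beta 3 subunit that binds vitronectin, went from 3.12, 2.96 and 4.44 RPKM to 0.0948, 0.217 and 0.242 in SW1990 and from 42.5, 24.1 and 25.6 to 3.79, 8.05 and 6.44 in CFPAC-1.

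Among contractile genes, *TUBA1A*, an alpha tubulin, was 119, 132 and 132 RPKM in SW1990 negative and 6.59, 8.03 and 6.41 in SW1990 positive cells, and 6.54, 5.22 and 3.56 against 0.987, 1.28 and 3.13 in CFPAC-1. *MYL9*, a myosin light chain, changed by -1.27 (SE 0.12). *TAGLN*, transgelin, changed by -1.26 (SE 0.28), with overlap in SW1990, where negative cells were at 35.6, 36.9 and 20.2 RPKM and positive cells at 24.9, 6.92 and 14.7.

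Of 39 transcription factors of the epithelial-mesenchymal transition and mesenchyme, 3 were lower in both lines, and in the blocked test 18 were lower and 3 higher. *ZEB1*, a repressor of epithelial genes that binds E-boxes, was 32, 32 and 31.9 RPKM in SW1990 negative and 2.91, 2.31 and 2.69 in SW1990 positive cells. CFPAC-1 had 7.65, 6.78 and 5.94 against 2.56, 2.49 and 2.48, so the positive samples of the lines overlapped while the negative ones did not. The change in SW1990 minus that in CFPAC-1 was -2.17 (adjusted p = 7.98e-06). *RUNX2*, a bone and invasion factor, changed by -1.77 (SE 0.25). *SOX5* changed by -1.89 in CFPAC-1 and in SW1990 its level fell at least 9.21-fold against 3 reads. With a pseudocount of 1 only 1 of the 39 was shared. The median of the list was -0.92 in SW1990 and 0.06 in CFPAC-1.

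Growth factor pathways are described next. Of 50 TGF-beta and BMP genes, 22 were lower and 3 higher in the blocked test, and 3 were lower in both lines beside the 2 higher ones, *FST* and *INHBB*. *TGFB2*, a TGF-beta ligand, fell from 22.2, 30 and 28 RPKM to 11.9, 12.9 and 11.9 in SW1990 and from 269.9, 293 and 305 to 119.9, 144 and 137 in CFPAC-1 (change -1.11, SE 0.08). *ID2*, a BMP and TGF-beta target, changed by -1.42 (SE 0.12), and *LRRC32*, which holds latent TGF-beta at the cell surface, by -2.67 (SE 0.26). Of 25 insulin and IGF axis genes, 3 were lower in both lines. *IGF2*, the fetal insulin-like growth factor, was 39.8, 34.8 and 38.2 RPKM in SW1990 negative and 1.98, 2.41 and 3.81 in SW1990 positive cells, and 34.6, 31.3 and 31.5 against 8.09, 11.1 and 12.2 in CFPAC-1. *INS-IGF2* shares exons with *IGF2* and moved with it, so the pair counts as 1 locus. *INSR*, the insulin receptor, changed by -1.47 (SE 0.21). *AXIN2*, a feedback target of Wnt signalling, was the only shared gene of 52 in the Wnt list, with a change of -2.43 (SE 0.35). The 30 Notch genes held no shared gene.

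Of 64 retinoid, steroid and xenobiotic metabolism genes tested, 8 were lower in both lines and 1, *SULT2B1*, a cholesterol sulfotransferase of skin, was higher, with a change of 2.28 (SE 0.36). Among the 8, *CYP26A1* is named after its values were seen. *STRA6*, the retinol uptake receptor, changed by -2.0 (SE 0.32), and the retinoic acid hydroxylases *CYP26A1* and *CYP26B1* by -1.75 (SE 0.29) and -1.9 (SE 0.36). The *UGT1A* genes, which add glucuronic acid to bilirubin and drugs, lie at chr2:234526279-234681946 (GRCh37) and share their last exons, and 9 of them were lower, with changes from -2.91 to -2.77. Shared exons may count 1 signal several times, also within the 8, which hold *UGT1A1* and *UGT1A6*. *UGT1A10* had 4.63, 10.2 and 10.3 RPKM in SW1990 negative, 1.17, 3.26 and 1.35 in SW1990 positive, 4.05, 2.95 and 3.03 in CFPAC-1 negative and 0.0641, 0 and 1.01 in CFPAC-1 positive cells.

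Genes of neurons and secretory granules were lower in 5 of 43 cases and higher in none. *SYT11*, a synaptotagmin of vesicle traffic, was 2.67, 2.99 and 3.34 RPKM in SW1990 negative and 0.117, 0.156 and 0.182 in SW1990 positive cells, and 3.58, 2.31 and 2.48 against 0.319, 0.464 and 0.38 in CFPAC-1, with a change of -3.09 (SE 0.22). *CHGB*, a granin, changed by -2.13 (SE 0.20). *GBP2* and *TNFSF10*, which encodes the death ligand TRAIL, were the only shared genes of 48 interferon-stimulated genes, with changes of -2.31 (SE 0.30) and -1.82 (SE 0.18). The 28 antigen presentation genes held none.

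The other lists held few shared genes, each named here. Higher were the sodium-hydrogen exchanger gene *SLC9A2* (change 1.47, SE 0.16) and the water and glycerol channel gene *AQP3* (1.76, SE 0.31). *CA12*, a carbonic anhydrase gene, was lower (-2.31, SE 0.36), as were *SCNN1D*, a sodium channel subunit gene (-1.34, SE 0.19), and *GABRE* (-1.33, SE 0.21). The GDNF family ligand gene *ARTN* (1.57, SE 0.15) and *GAS6*, a ligand of AXL receptors (1.75, SE 0.38), were higher and *VEGFC*, a lymphatic growth factor gene, lower (-1.15, SE 0.27), with overlap of samples in a line.

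Axon guidance genes *SEMA4A* (1.94, SE 0.28) and *NTNG1* (1.82, SE 0.29) and the apical trafficking gene *MYO1D*, a myosin (1.86, SE 0.27), were higher. *MAL*, a lipid raft protein gene of apical transport, was at the limit of 3 reads in both groups of SW1990, so no fold is given there. In CFPAC-1 *MAL* was 0, 0 and 0 RPKM in negative and 1.01, 0.404 and 0 in positive cells, so the samples overlapped. The mean of these positive samples was 1.69-fold the level of 3 reads. The protease nexin gene *SERPINE2* (-2.02, SE 0.32) was lower. *SERPINE2* was 86.3, 104 and 91.6 RPKM in SW1990 negative and 12.6, 10.5 and 11.4 in SW1990 positive cells, and 29.2, 31.6 and 29 against 11.7, 12 and 22.1 in CFPAC-1.

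Secretory lineage genes *CREB3L1*, a transcription factor of secretion (-2.6, SE 0.27), and *FCGBP*, a mucus protein (-1.21, SE 0.32), were lower. So were the cystine transporter gene *SLC7A11* (-1.33, SE 0.18), *RASSF8*, which encodes a Ras-association protein (-1.75, SE 0.15) and *CREB3L3*, a stress-activated factor of liver and gut (-1.8, SE 0.36). *CERS4*, a ceramide synthase gene, changed by -2.09 in CFPAC-1 and at least 5.24-fold, against 3 reads, in SW1990. Of matrix, protease, adhesion and contractile genes not yet given, *GPC6*, a glypican (-1.75, SE 0.26), *CTSF*, cathepsin F (-1.95, SE 0.27), *FLRT2*, an adhesion protein (-1.89, SE 0.24), and *LMOD1*, leiomodin of smooth muscle (-1.84, SE 0.32), were lower. The zinc finger genes *ZNF385B* (1.32, SE 0.28) and *ZNF610* (-1.28, SE 0.23) moved in opposite directions.

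Outside the lists were 179 of the 253 shared lower genes. *SUCNR1*, a receptor for succinate, was 0.796, 2.27 and 1.85 RPKM in SW1990 negative and 0, 0.143 and 0.137 in SW1990 positive cells. The CFPAC-1 levels were 20.6, 13.8 and 12.3 against 1.48, 1.87 and 0.973, without overlap in either line. *KLF9*, a transcription factor induced by glucocorticoids, went from 0.747, 1.09 and 1.41 RPKM to 0.158, 0.0905 and 0.0975 in SW1990 and from 4.85, 3.2 and 3.07 to 0.147, 0.348 and 0.385 in CFPAC-1. *LOC283070*, a locus with no further name in the table, changed by -3.5 (SE 0.23).

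The following lower genes were, except for *BTG2*, *TP53INP1* and *PDK4*, picked after their values were seen, so they are examples and not a list. *MXD4*, a MYC antagonist, changed by -2.06 (SE 0.25), *PIK3IP1*, an inhibitor of PI3-kinase, by -2.17 (SE 0.35), *BCL6*, a transcriptional repressor, by -1.58 (SE 0.14), and *BTG2*, an antiproliferative gene, by -1.49 (SE 0.26). *TP53INP1*, a p53-induced gene, changed by -2.22 (SE 0.29), and *PDK4*, which holds pyruvate back from the mitochondrion, by -1.6 (SE 0.26). *BCL6* was 5.17, 4.86 and 7.27 RPKM in SW1990 negative and 1.3, 1.88 and 1.89 in SW1990 positive cells, and 34.9, 29.8 and 31.7 against 11.4, 14.5 and 9.69 in CFPAC-1.

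Cell division genes moved with the blocked test but contributed no shared gene. Of 58 DNA replication genes, 54 were higher in the blocked test and none was lower, the highest share among the 45 lists, and of 70 mitotic genes 48 were higher and none lower. Over 2-fold higher were 51 of the 58 in CFPAC-1 and 0 in SW1990, so the 2-fold rule kept none. The summed level of the replication genes was 1103 to 1466 RPKM in SW1990 negative and 1479 to 1780 in SW1990 positive cells, and 485 to 523 against 1360 to 1703 in CFPAC-1. The change was larger in CFPAC-1 for 55 of the 58 (adjusted p under 0.05 for the difference) and larger in SW1990 for none. Within a line, 12 of the 58 were higher in SW1990 and 58 in CFPAC-1 at an adjusted p under 0.05. The part of cell division in the shared genes was not tested.

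Other lists held few shared genes or none, and their counts in the blocked test stand against 15.3% of all genes tested higher and 14.4% lower. Of 139 KRAB and other C2H2 zinc finger genes, 49 (35.3%) were lower and 4 higher, with medians of -0.28 in SW1990 and -0.22 in CFPAC-1 and only 1 shared gene in each direction. Of 44 vesicle trafficking genes, 19 (43.2%) were higher and 5 (11.4%) lower, with medians of 1.05 and -0.10. Of 34 AP-1 and immediate early genes, 10 (29.4%) were lower and 1 higher, and the only shared gene was *BTG2*. Of 76 cytosolic ribosomal protein genes, 5 (6.58%) were higher and 4 (5.26%) lower, both under those shares. Of 32 HOX genes, 7 (21.9%) were lower and none was shared. In all, 2484 genes were higher and 2332 lower in the blocked test, and 92.3% of these 4816 were not shared genes.

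**Figure D3:**
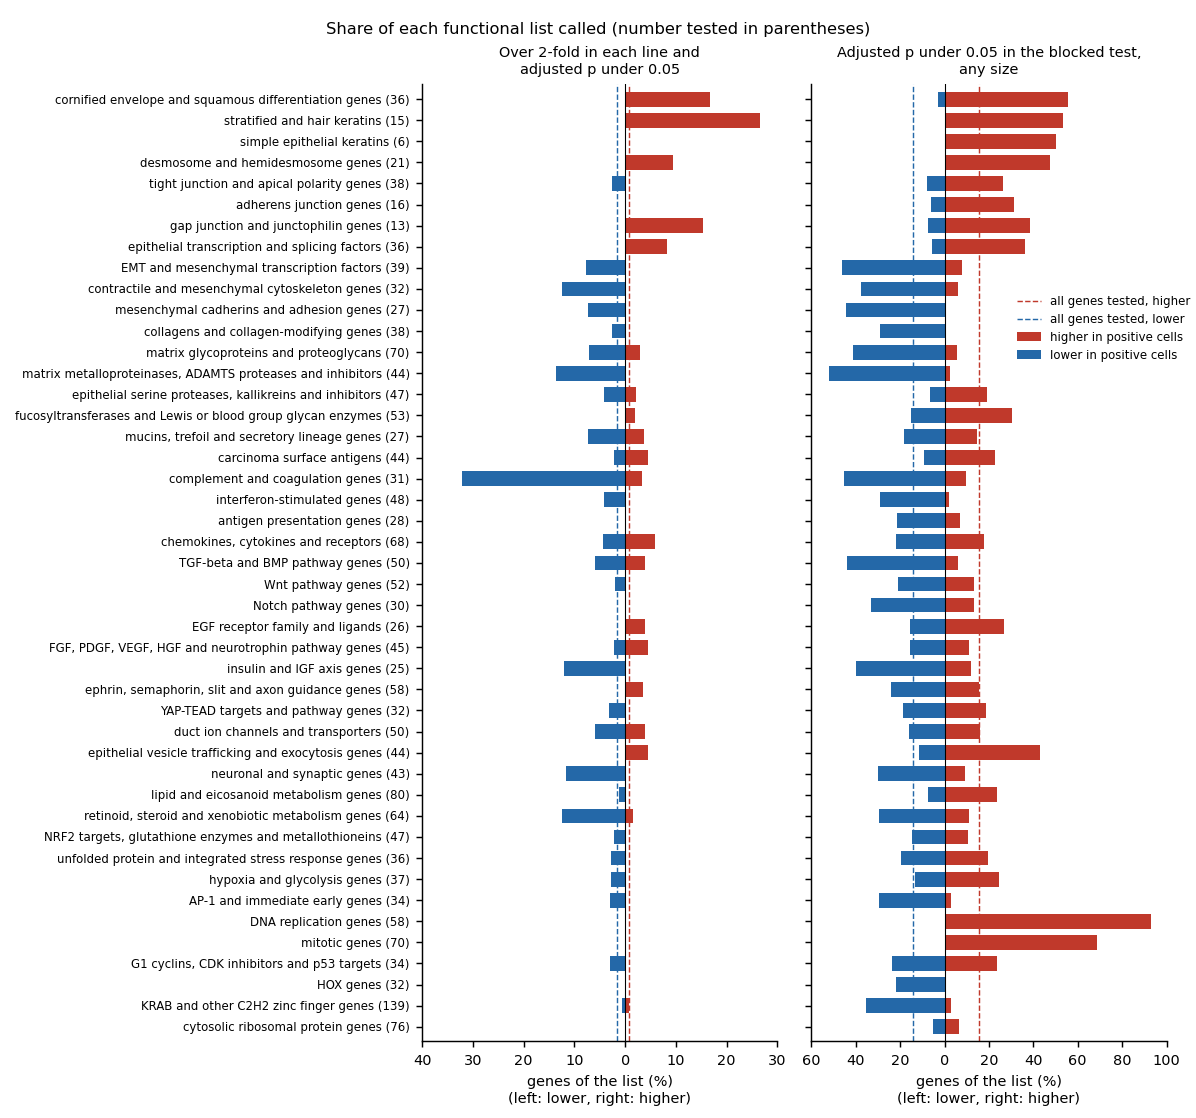
Percent of each of 45 functional lists that was higher (red, to the right) or lower (blue, to the left) in positive cells, over 2-fold in each line (left panel) or by the blocked test at any size (right panel), with the number of genes tested in parentheses and all genes tested as dashed lines. Stratified keratins reach 26.7% higher and complement and coagulation genes 32.3% lower on the left, while DNA replication genes reach 93.1% higher on the right and 0 on the left.

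**Figure D4:**
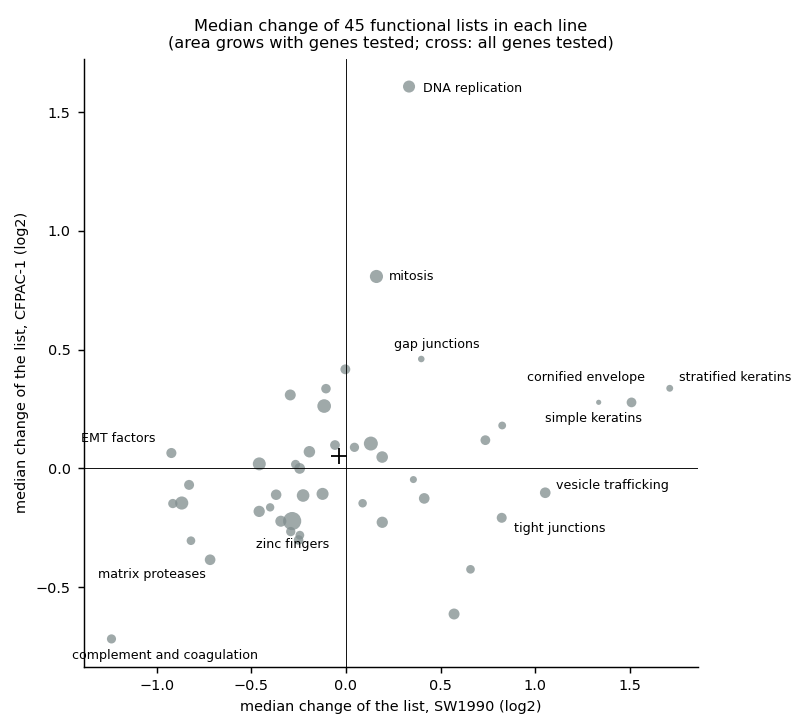
Median change of each of 45 functional lists in SW1990 (x axis, log2) and CFPAC-1 (y axis, log2), with the area growing with the number of genes tested and a cross for all genes tested. The complement list lies low in both lines (-1.24 and -0.72), the cornified envelope list is high mainly in SW1990 (1.51 and 0.28) and the DNA replication list mainly in CFPAC-1 (0.33 and 1.61).

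The change differed in size between the lines for 69 (18.7%) of the 369 shared genes at an adjusted p under 0.05, against 26.9% of all genes tested. It was larger in SW1990 for 56 and larger in CFPAC-1 for 13. Over 2-fold in opposite directions were 180 genes that are not described here.

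Shared genes were also neighbours on the chromosome. Of 112 shared higher genes with a GRCh37 position, 12 (10.7%) lay next to another shared higher gene, against 1.46% of all genes tested, and of 246 shared lower genes 19 (7.72%) did so, against 3.19%. The higher neighbours were *IVL* with *SPRR1A*, *SPRR1B* and *SPRR3* on chromosome 1, the keratin genes *KRT6A*, *KRT6B*, *KRT81* and *KRT86* on chromosome 12, *IL1RN* with *IL36RN*, and *ALPP* with *ALPPL2*. Among the lower ones were *C1R* with *C1S*, *GBP2* with *GBP4* and *F2R* with *F2RL2*. Many of these are related copies, which can share reads, and with overlapping genes on 1 strand merged the 358 shared genes with a position were 347 loci, 112 higher and 235 lower.

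Most shared genes encode proteins. By RefSeq gene type, 87.9% of the higher and 89.3% of the lower genes were protein-coding, as were 87.3% of all genes tested. MicroRNA genes were 11 (4.35%) of the lower genes, against 2.27% of those tested. In poly(A) RNA such rows may count reads over a short hairpin within longer transcripts, and 10 of the 11 had a group with at most 3 reads in every sample. Small nucleolar RNA genes were 5 (4.31%) of the higher and 0 of the lower genes, against 1.51% of those tested. *MIR452* lies within *GABRE*, a GABA receptor subunit gene that was lower as well, and in CFPAC-1 it held at most 3 reads in every sample.

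Short motifs were counted in the promoters. The RefSeq table held a promoter for 72 of the 116 higher genes (62.1%), 162 of the 253 lower genes (64.0%) and 12139 genes tested. Since under 80% of the shared genes had one, the check is void for the shared genes as a whole and the shares describe only the promoters found. CAGGTG was in 45.8% of the higher, 17.3% of the lower and 19.3% of all promoters. TGANTCA was in 19.4%, 6.17% and 4.98%, and TATAAA in 19.4%, 9.88% and 6.2%. AACNNGTT, the grainyhead site, was in 6.94%, 2.47% and 2.59%, GGAATG, the TEAD site, in 18.1%, 8.64% and 11.1%, and GGGCGG, the GC box, in 59.7%, 55.6% and 67.3%. The first listed start of each gene was used, and over all listed starts CAGGTG was in 43.1%, 19.7% and 19.4%. A match is a stretch of letters and not a bound site.

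**Figure D5:**
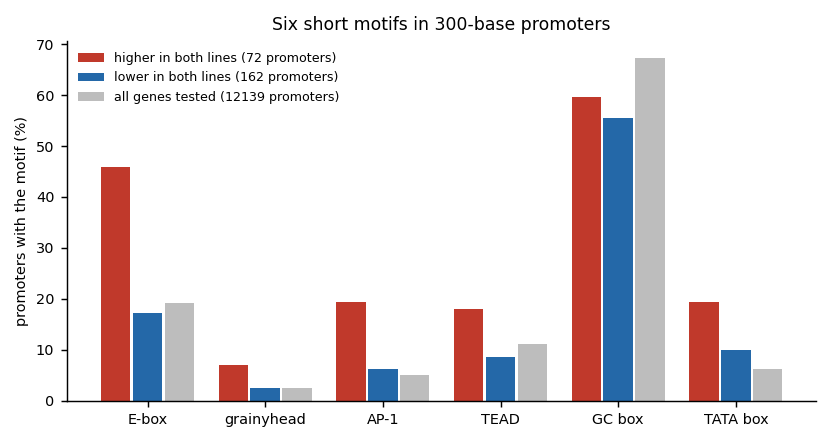
Percent of 300-base promoters that hold each of 6 short motifs on either strand, for shared higher genes (red, 72 promoters), shared lower genes (blue, 162 promoters) and all genes tested (grey, 12139 promoters). The E-box is in 45.8% of the promoters of higher genes and in 17.3% and 19.3% of the other 2 sets.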

How the data were processed

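Sorted cells of 2 lines were compared by RNA-seq over 12 samples, 3 in each of 4 groups. The deposited RPKM values were made by the authors, who aligned reads to hg19 (GRCh37) and normalized counts for library size and gene length with QuasR. The submitters' processing notes name bcl2fastq. The annotation and the use of strand in counting are not given in the sources used here. Whole reads and library totals were recovered from the RPKM steps, to within 0.01 of a read, and served for lower bounds against 3 reads and for 1 alternative. A bound sets a group with at most 3 reads in every sample to 3 reads. It takes the mean of the other group as it stands, so the spread and counting error of that mean are not covered. The paper states that sequencing was paired-end. If both reads of a pair were counted, 3 reads can stand for fewer fragments, which was not tested.

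Genes whose mean reached 0.1 RPKM were analysed as log2(RPKM + 0.1) in R 4.3.3 with limma 3.58.1 (eBayes with an intensity trend), with terms for line and staining, 2-sided, and Benjamini-Hochberg adjustment over 16236 genes. Shared genes had an adjusted p under 0.05 and group means over 2-fold apart in each line. SE is the standard error of the blocked change. The difference between lines was tested on 4 group means. The paper names TCC, which was not used here. The read recovery and the fit were tested on simulated data.

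The rule, the 45 functional lists, the 6 lists of cell type markers and the motifs were chosen with earlier results of these data known, and the lists hold genes that the paper names, so their counts are a description. Lists do not overlap among the 45. Genes named are the 12 with the largest and 12 with the smallest blocked change at a mean of at least 1 RPKM and without overlap of samples, up to 4 per list and direction, the 3 nearest to 2-fold on each side, the 5 with the highest level in each direction, and others said to be picked after their values were seen. Shared genes are also named as chromosomal neighbours. Some genes that the rule takes are not reported here.

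Replicate numbers of positive and negative samples correlated at -0.06 to 0.18 in their deviations from the group mean, so the numbers were not taken to pair samples. P-values within a line and for the difference between lines measure the spread between sorts. Those of the blocked test, and its SE, also take in the difference in change between the lines. With 4 group means, which leave that difference out of the spread, 3645 genes were higher and 3260 lower in place of 2484 and 2332. Alternatives were pseudocounts of 1 and 0.01, no filter or a mean RPKM of at least 1, median centring, quantile normalization, 4 group means, a replicate block, no trend, an adjusted p under 0.01, the ratio of mean RPKM, voom on recovered reads and each sample left out. Positions are from GENCODE 44 mapped to GRCh37, matched by symbol for 97.0% of the shared genes. Figures were drawn with matplotlib 3.10.9 in Python 3.11.15.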

Additional observations from a re-analysis of the deposited data

Results flagged for a closer look

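Among the genes named in the report, the change differed in size between the lines for 38, at a limma adjusted p under 0.05 for the change in SW1990 minus the change in CFPAC-1, which is the value given here on the log2 scale. Among genes lower in positive cells, all 20 had the larger fall in SW1990, with values of *SPARC* (-3.91), *C1S* (-3.12), *FBN1* (-2.81), *TUBA1A* (-2.6), *MRC2* (-2.6), *SPP1* (-2.53), *C1R* (-2.51), *CA12* (-2.23), *ZEB1* (-2.17), *INS-IGF2* (-2.14), *IGF2* (-2.14), *AXIN2* (-2.11), *SERPINE2* (-1.99), *STRA6* (-1.71), *TNIP3* (-1.48), *GPC6* (-1.4), *ITGB3* (-1.35), *RUNX2* (-1.29), *SYT11* (-1.07) and *ID2* (-0.72). Among genes higher in positive cells, 15 had the larger rise in SW1990, with values of *SEMA4A* (1.6), *FUT3* (1.66), *MYO1D* (1.71), *GRHL2* (1.77), *C6orf15* (1.79), *SPRR3* (1.8), *LY6D* (2.2), *ALPPL2* (2.23), *KRT6B* (2.53), *S100A9* (2.56), *TFF1* (3.03), *SPRR2A* (3.28), *UPK2* (3.4), *SPRR1B* (3.42) and *C2orf54* (3.5), and 3 had the larger rise in CFPAC-1, with values of *NID2* (-1.38), *KRT6A* (-0.96) and *INHBB* (-0.96). *INS-IGF2* shares exons with *IGF2*, and *KRT6A* and *KRT6B* are near copies. *ALPPL2* and *S100A9* are named outside the naming rule. Among these the difference was largest for *SPARC*, whose CFPAC-1 positive samples held at most 3 reads each, and the same limit holds for *SPRR2A*, *KRT6B* and *ALPPL2* in CFPAC-1 negative cells, *TFF1* in SW1990 negative cells and *TNIP3* in the positive cells of both lines, so these values depend on the pseudocount.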

How the results depend on the processing

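The number of shared genes, 116 higher and 253 lower, stayed within 1.5 times these counts under no filter, a mean RPKM of at least 1, median centring, quantile normalization, 4 group means, a replicate block, no trend, an adjusted p under 0.01 and the ratio of mean RPKM. A pseudocount of 1 gave 41 higher and 74 lower, of which 28 differed between lines, because it shrinks the fold of low genes. A pseudocount of 0.01 gave 171 higher, within 1.5 times, and 401 lower, and voom on recovered reads gave 181 and 414. With an adjusted p under 0.01 the blocked test called 1149 higher and 1133 lower, and 40 shared genes differed between lines. The replicate block, which pairs samples by number, gave 1518 higher and 1488 lower in the blocked test in place of 2484 and 2332, while shared genes were 118 and 249. The numbers did not pair the samples, with correlations of -0.06 to 0.00 in CFPAC-1 and 0.02 to 0.18 in SW1990. With each sample left out in turn, shared genes ranged from 112 to 132 higher and from 222 to 276 lower, the blocked test from 1956 to 2524 and from 1736 to 2440, and genes differing between lines from 56 to 95. Of 120 genes chosen by the naming rule, all kept their direction under the 24 alternatives that could be fitted to them, and 4, among them *FAM83F*, *FCGBP* and *MAL*, passed 0.05 but not 0.01. Since these genes were chosen from the same samples for moving in the same direction in both lines, their kept direction is a description. Depth limits the low genes, since 73 shared genes had a group with at most 3 reads in every sample.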
